A study of Bos taurus with 16 samples.

Results

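Glutathione transferases are enzymes that join the tripeptide glutathione to reactive, electrophilic compounds, or use glutathione to reduce them, so that the products can be exported from the cell and excreted. The cytosolic enzymes are grouped in classes by sequence, among them alpha, mu, pi and omega. The kappa enzyme sits in mitochondria and peroxisomes, and the microsomal enzymes are a separate family of membrane proteins. The liver is a main site of this conjugation, and in rodents and humans many transferase genes respond to the transcription factor Nrf2 and to receptors for foreign compounds. In the deposited array data, 10 transferase genes were followed, namely *GSTM1*, *GSTM2* and *GSTM3* of the mu class, *GSTA2* and *GSTA4* of the alpha class, *GSTP1* of the pi class, *GSTO1* of the omega class, *GSTK1* of the kappa class and the microsomal *MGST1* and *MGST2*. Every transcript cluster, a set of array probes for a gene or transcript, that carried 1 of these symbols was kept, which gave 11 clusters of 20421 on the array. *GSTM1* had 2 clusters, and they are called here by the names that the reference annotation gives to their accessions, LOC327709 and LOC783879. The reference also lists *GSTM4* as a synonym of LOC783879. The genes were listed with the differences between the groups already known, so these differences are given as a description, without a test.

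Liver biopsies of 16 multiparous Holstein cows, all female, dated from week 1 postpartum. All cows were fed 1 total mixed ration in the dry period and another after parturition. In a herd of 30, medically treated animals had been set aside, and of the rest the study took the 8 with most *FGF21* transcript in the liver as the *FGF21* high group and the 8 with least as the *FGF21* low group. *FGF21* codes for a hormone that the liver releases into the blood. No cow received an experimental treatment, so the groups are the ends of a natural range, and each cow contributed 1 array. The paper gives a higher average parity for *FGF21* high cows than for *FGF21* low cows, and the part of parity in the differences was not tested. In bulk tissue, fewer cells of a type and less RNA per cell cannot be told apart. Values are log2 signals, on which a difference of 1 is a doubling, and they hold no sequencing depth. The number of arrays limits the precision, and RNA quality can limit it too. The paper reports some RNA degradation and says that it can lower the sensitivity and specificity of arrays. It gives RNA integrity over all samples only, so its part in the spread between cows was not tested. Array medians were 6.25 to 6.31 for *FGF21* high cows and 6.26 to 6.34 for *FGF21* low cows. *ALB*, which codes for albumin and is a marker of hepatocytes, averaged 13.66 ± 0.04 in *FGF21* high cows and 13.68 ± 0.03 in *FGF21* low cows (mean ± SD, n = 8 each). It was the brightest of 7 hepatocyte markers, of which 6 had a lower mean in *FGF21* high cows. By limma, 3 of the 7 were lower at an unadjusted p under 0.05, with a background of 4.52% lower over all clusters. Standard errors of differences come from limma.

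The 4 mu class clusters lay side by side on chromosome 3. The sources used here do not name the genome build of the array annotation, which placed *GSTM3* at 33768050 to 33770824, *GSTM1* (LOC327709) at 33805751 to 33816442, *GSTM2* at 33824841 to 33834841 and *GSTM1* (LOC783879) at 33874016 to 33880598. *GSTM3* was on the plus strand and the others were on the minus strand. The row spanned 112.5 kb, and the shortest gap, between *GSTM1* (LOC327709) and *GSTM2*, was 8.4 kb. The reference annotation lists these genes in the same order. Mu class genes are similar in sequence, and the array's mark for cross-hybridization was the same for all 20421 clusters, so how far a mu cluster also reads its neighbours was not tested.

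All 4 mu class clusters had a lower mean in *FGF21* high cows, with a median log2 difference of -0.58, against a median of -0.02 over all clusters of the array. *GSTM2*, which in humans conjugates a range of electrophiles and quinones, had a lowest, median and highest signal of 9.02, 10.18 and 10.92 in *FGF21* high cows and 10.39, 10.76 and 11.65 in *FGF21* low cows. The groups overlapped, yet 5 of 8 *FGF21* high cows lay below every *FGF21* low cow and 3 *FGF21* low cows lay above every *FGF21* high cow. Means were 10.08 ± 0.63 in *FGF21* high cows and 10.88 ± 0.44 in *FGF21* low cows, a difference of -0.81 (SE 0.23), or 1.75-fold lower.

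*GSTM1* (LOC327709) spread from 7.89 over a median of 8.59 to 9.47 in *FGF21* high cows and from 8.95 over 9.37 to 10.52 in *FGF21* low cows. Here 6 of 8 *FGF21* high cows were below the whole *FGF21* low group. The difference of the means, 8.67 ± 0.49 in *FGF21* high cows and 9.41 ± 0.50 in *FGF21* low cows, was -0.75 (SE 0.21). The highest *FGF21* low cow, replicate 4, stood well above the rest of its group, and without it the difference was -0.59.

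*GSTM1* (LOC783879) had a lowest, median and highest signal of 10.33, 11.51 and 12.11 in *FGF21* high cows and 11.54, 11.85 and 12.09 in *FGF21* low cows. The *FGF21* high cows spread over a range that enclosed the whole *FGF21* low group, with an SD of 0.51, which was 2.77 times the 0.19 of the *FGF21* low cows, and 1.46 times it without *FGF21* high replicate 5, whose signal of 10.33 was the lowest. Although 7 of 8 *FGF21* high cows were below the *FGF21* low mean, the difference of -0.41 (SE 0.17) moved to -0.25 without that cow. *GSTM3*, known in humans for its expression in brain and testis, showed little of this pattern. Its signals were 9.73, 10.27 and 10.54 (lowest, median and highest) in *FGF21* high cows and 9.60, 10.47 and 10.57 in *FGF21* low cows, with a difference of -0.08 (SE 0.14) and 4 of 8 *FGF21* high cows below the *FGF21* low mean. That difference was -0.01 without *FGF21* high replicate 5 and -0.19 without *FGF21* low replicate 2.

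**Figure D1:**
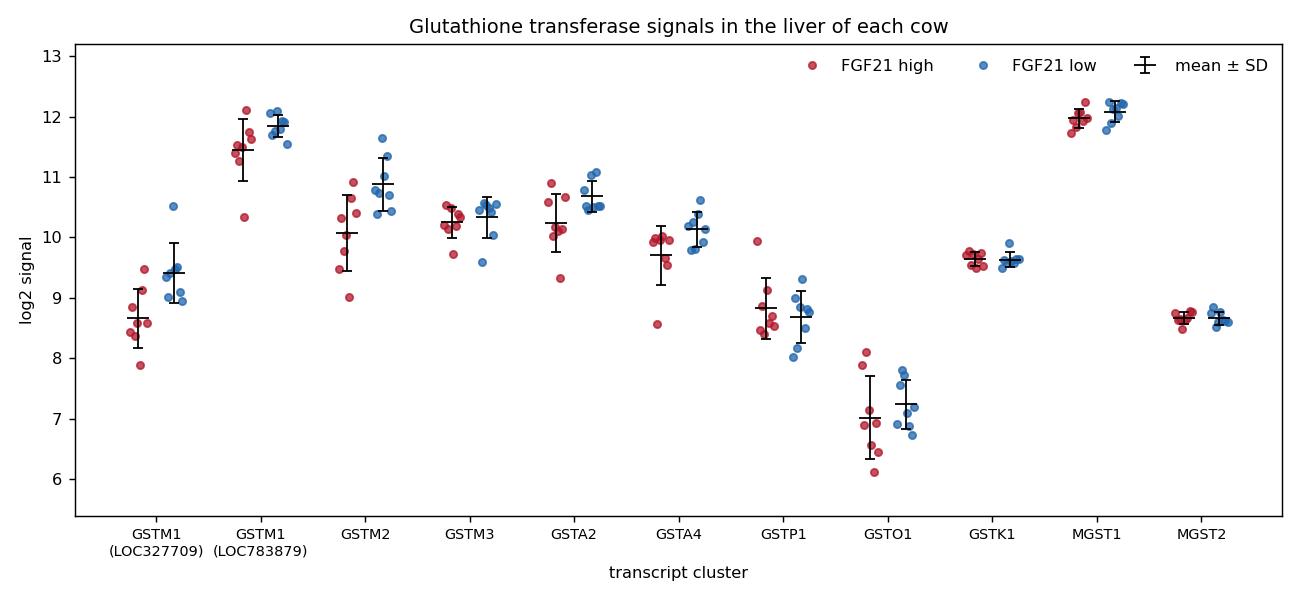
Log2 signal of the 11 glutathione transferase clusters in each cow, with *FGF21* high cows in red on the left and *FGF21* low cows in blue on the right of each pair. Each point is 1 cow (n = 8 per group) and bars are mean ± SD. The groups overlapped for every cluster, and the 2 *GSTM1* clusters, *GSTM2*, *GSTA2* and *GSTA4* sat lower in most *FGF21* high cows.

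The alpha class enzymes are abundant in mammalian liver, and *GSTA4* is known for conjugating hydroxynonenal, an aldehyde formed when lipids are oxidized. Both alpha clusters were lower on average in *FGF21* high cows. They lay on chromosome 23, *GSTA2* at 24823645 to 24837368 and *GSTA4* at 24963227 to 24977291, both on the minus strand. *GSTA2* signals were 9.32, 10.16 and 10.90 (lowest, median and highest) in *FGF21* high cows and 10.46, 10.53 and 11.08 in *FGF21* low cows. Again 5 of 8 *FGF21* high cows lay below every *FGF21* low cow, while the remaining cows mixed. Means were 10.24 ± 0.49 in *FGF21* high cows and 10.68 ± 0.25 in *FGF21* low cows, a difference of -0.44 (SE 0.17), or 1.36-fold lower.

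*GSTA4* signals were 8.58, 9.94 and 10.03 in *FGF21* high cows and 9.79, 10.16 and 10.62 in *FGF21* low cows. All 8 *FGF21* high cows lay below the *FGF21* low mean, and 5 *FGF21* low cows lay above every *FGF21* high cow. The means of 9.70 ± 0.49 in *FGF21* high cows and 10.13 ± 0.29 in *FGF21* low cows differed by -0.43 (SE 0.18), which became -0.27 without *FGF21* high replicate 3, the cow at 8.58.

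The clusters of the remaining classes had smaller log2 differences between the groups than both alpha clusters. *GSTP1*, which in human liver marks bile duct cells rather than hepatocytes, ranged from 8.41 over a median of 8.64 to 9.94 in *FGF21* high cows and from 8.02 over 8.79 to 9.32 in *FGF21* low cows. Its difference of 0.15 (SE 0.20) was -0.01 without *FGF21* high replicate 1, the cow at 9.94. The reference lists 2 genes under the name *GSTP1*, and the accession of the cluster, on chromosome 29 at 46087142 to 46090009, matched neither. *GSTO1*, an omega enzyme that reduces dehydroascorbate, had the largest pooled SD within groups of the 11 clusters, with signals of 6.12, 6.91 and 8.11 in *FGF21* high cows and 6.73, 7.15 and 7.81 in *FGF21* low cows. *FGF21* high cows were found on both sides of the *FGF21* low range, 3 below it and 2 above it, and the difference was -0.22 (SE 0.24). It was -0.10 without *FGF21* high replicate 6, -0.38 without *FGF21* high replicate 3 and -0.49 when the labels' running number entered the fit. Running numbers were 1 to 26 in *FGF21* high cows and 7 to 31 in *FGF21* low cows, so number and group are partly confounded in that fit. The cluster lay on chromosome 26 at 25088448 to 25097722.

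*GSTK1* and the microsomal clusters varied least. *GSTK1* signals were 9.49, 9.68 and 9.78 in *FGF21* high cows and 9.49, 9.62 and 9.91 in *FGF21* low cows (difference 0.01, SE 0.07). *MGST1*, an enzyme of the endoplasmic reticulum and outer mitochondrial membrane, had signals of 11.72, 11.96 and 12.23 in *FGF21* high cows and 11.77, 12.14 and 12.25 in *FGF21* low cows. Its difference was -0.11 (SE 0.08), and 7 of 8 *FGF21* high cows lay below the *FGF21* low mean. *MGST2*, which can form a cysteinyl leukotriene, had signals of 8.48, 8.66 and 8.79 in *FGF21* high cows and 8.52, 8.63 and 8.85 in *FGF21* low cows, with a difference of 0.00 (SE 0.06). These genes lay apart from each other, *GSTK1* on chromosome 4 at 107468164 to 107473272, *MGST1* on chromosome 5 at 93926899 to 93942185 and *MGST2* on chromosome 17 at 18331272 to 18369333. The sign of the *GSTK1* and *MGST2* differences changed between settings, and their sizes were below their standard errors.

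**Figure D2:**
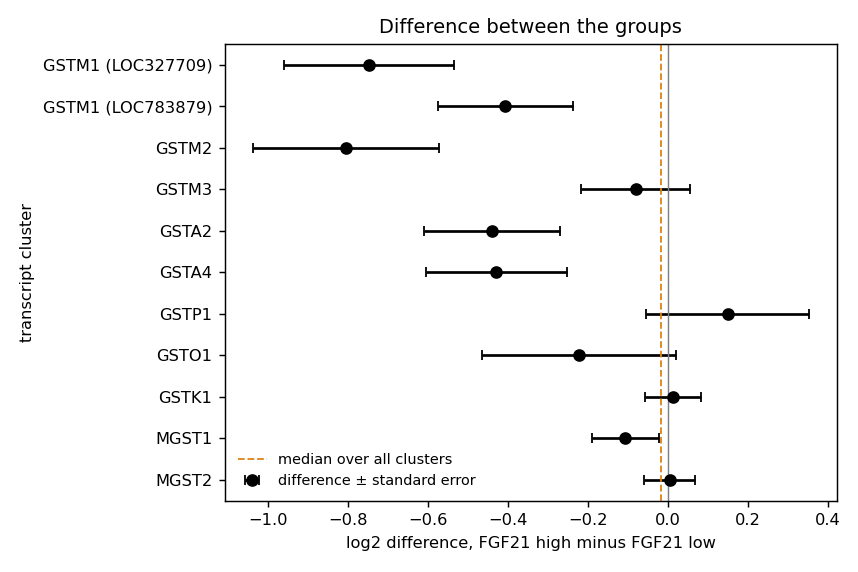
Log2 difference of each transferase cluster, *FGF21* high minus *FGF21* low, with bars of 1 standard error from limma (n = 8 per group). The dashed line marks the median over all 20421 clusters, -0.02. *GSTM2* at -0.81 and *GSTM1* (LOC327709) at -0.75 lie farthest to the left, and *GSTP1* at 0.15 farthest to the right.

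Of the 11 clusters, 8 had a negative difference and 3 a positive one, with a median of -0.22, while 56.6% of all clusters had a negative difference. With limma, 0 of 11 transferase clusters had an adjusted p under 0.05, with a background of 0.0294% of all clusters. At an unadjusted p under 0.05, 5 of 11 were lower in *FGF21* high cows and 0 were higher, with a background of 4.52% lower and 2.89% higher. The same 5 clusters, the 2 of *GSTM1*, *GSTM2*, *GSTA2* and *GSTA4*, also exceeded the study's fold change criterion of 1.2, for which the background was 1.54% lower and 1.29% higher. With the arrays quantile normalized again, the background was 3.56% lower and 3.75% higher at an unadjusted p under 0.05, and 1.12% lower and 1.46% higher with the fold change criterion. By the methods' t-test, 3 of 11 met both criteria, with a background of 2.17% in either direction. These counts use the contrast by which the genes were listed, so nothing is read from them. For none of the 11 clusters were the groups free of overlap, which held for 0.0539% of all clusters.

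The transferases differed widely in their spread between cows of the same group. The pooled SD within groups was 0.57 for *GSTO1*, 0.54 for *GSTM2*, 0.49 for *GSTM1* (LOC327709), 0.47 for *GSTP1*, 0.40 for *GSTA4* and 0.39 for both *GSTA2* and *GSTM1* (LOC783879). These 7 clusters ranked between the 95.9th and the 99.1st percentile of all clusters for spread. For several of them the rank leaned on 1 cow. The pooled SD of *GSTA4* was 0.25, at the 79.9th percentile, without *FGF21* high replicate 3. That of *GSTM1* (LOC783879) was 0.23, at the 74.1st percentile, without *FGF21* high replicate 5. *GSTA2* had 0.30, at the 89.3rd percentile, without *FGF21* high replicate 6. *GSTP1* had 0.36, at the 94.8th percentile, without *FGF21* high replicate 1. *GSTM3* had a pooled SD of 0.30, at the 89.6th percentile. In contrast, *MGST1* was at the 37.0th percentile with an SD of 0.16, *GSTK1* at the 8.65th with 0.12 and *MGST2* at the 4.12th with 0.10. Over all 16 cows, the *GSTM2* signal differed by up to 6.19-fold between animals, and that of *MGST2* by up to 1.29-fold.

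Some cows were low or high for several transferases at once. *FGF21* high replicate 5 was the lowest of its group for 5 clusters, all 4 of the mu class and *GSTK1*, and was the highest of its group for *GSTA4*. *FGF21* high replicate 7 was the highest of its group for 4 clusters, *GSTM1* (LOC327709), *GSTM2*, *MGST1* and *MGST2*. In the *FGF21* low group, replicate 4 was the highest for both *GSTM1* clusters, *GSTM2* and *GSTK1*. No cow was lowest or highest across all classes.

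Co-variation between cows within a group does not use the difference between the groups and was therefore tested. Over the 110 relations, 55 pairs in each group, the relation was tested by exact permutation of all pairings of 8 cows, two-sided, with Benjamini-Hochberg adjustment over all 110. *GSTM1* (LOC327709) and *GSTM2*, the closest neighbours on chromosome 3, moved together in both groups. In *FGF21* high cows, Pearson's r was 0.941 (p = 0.000719, exact permutation test, adjusted p = 0.0396) and Spearman's rho was 0.952 (p = 0.00114, exact, adjusted p = 0.0314). In *FGF21* low cows, r was 0.911 (p = 9.92e-05, exact permutation test, adjusted p = 0.0109) and rho was 0.952 (p = 0.00114, exact, adjusted p = 0.0314). Leaving out the 2 cows farthest from the median of *GSTM1* (LOC327709) gave 0.840 in *FGF21* high cows and 0.853 in *FGF21* low cows. How far the mu clusters read each other's transcripts, which could also make their signals move together, was not tested.

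The second *GSTM1* cluster was positively correlated with both of these in each group, with calls in *FGF21* high cows by rank only. *GSTM1* (LOC783879) against *GSTM2* had an r of 0.870 in *FGF21* high cows (p = 0.00206, exact permutation test, adjusted p = 0.0755) and a rho of 0.952 (adjusted p = 0.0314), and r was 0.895 without the 2 outermost cows. In *FGF21* low cows, r was 0.723 (p = 0.0422, exact permutation test, adjusted p = 0.511) and rho was 0.810 (p = 0.0218, exact, adjusted p = 0.399). There r fell to 0.405 without the 2 outermost cows and was 0.574 to 0.871 with any 1 cow left out. The 2 *GSTM1* clusters against each other gave an r of 0.844 (adjusted p = 0.234) and a rho of 0.952 (adjusted p = 0.0314) in *FGF21* high cows. In *FGF21* low cows they gave an r of 0.694 (adjusted p = 0.511) and a rho of 0.738 (adjusted p = 0.504), all by the exact permutation test. Without the 2 outermost cows r was 0.906 in *FGF21* high cows and fell to 0.282 in *FGF21* low cows. With any 1 cow left out, r was 0.573 to 0.818 in *FGF21* low cows. Whether the correlations differ between the groups was not tested.

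**Figure D3:**
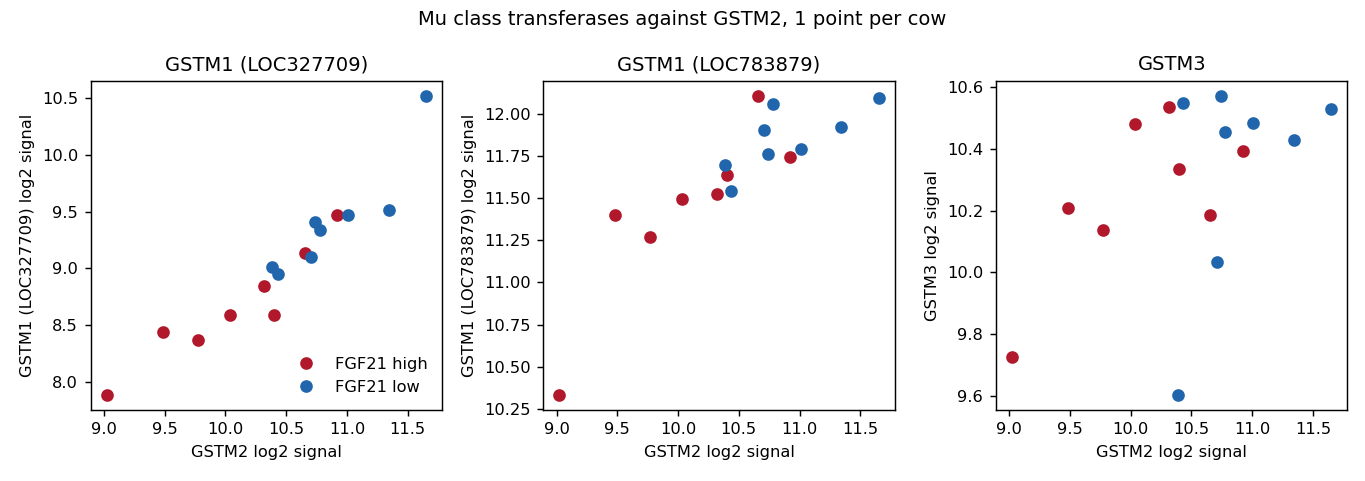
Log2 signals of *GSTM1* (LOC327709), *GSTM1* (LOC783879) and *GSTM3* on the vertical axes against the log2 signal of *GSTM2* on the horizontal axis, 1 point per cow, with *FGF21* high cows in red and *FGF21* low cows in blue. Within groups, r between *GSTM1* (LOC327709) and *GSTM2* was 0.941 in *FGF21* high cows and 0.911 in *FGF21* low cows, and the *GSTM3* points scatter more widely.

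For *GSTM3*, which is read from the opposite strand, the relation with *GSTM2* was not called in either group, with an r of 0.696 in *FGF21* high cows (p = 0.0495, exact permutation test, adjusted p = 0.511) and 0.468 in *FGF21* low cows. The alpha pair, *GSTA2* and *GSTA4*, had an r of 0.371 in *FGF21* high cows and 0.193 in *FGF21* low cows. Across classes, *GSTA2* against *GSTM2* had opposite signs in the groups, -0.145 in *FGF21* high cows and 0.819 in *FGF21* low cows, and the r in *FGF21* low cows was 0.141 without the 2 outermost cows. *GSTP1* and *MGST1* gave an r of 0.859 in *FGF21* low cows (p = 0.00655, exact permutation test, adjusted p = 0.180), and a rho of 0.738 (p = 0.0458, exact, adjusted p = 0.504), and r was 0.424 without the 2 outermost cows. Over all 110 relations, 2 passed the adjusted threshold by Pearson's r and 4 by Spearman's rho, all of them between mu class clusters. The median r over the pairs was 0.109 in *FGF21* high cows and 0.037 in *FGF21* low cows.

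**Figure D4:**
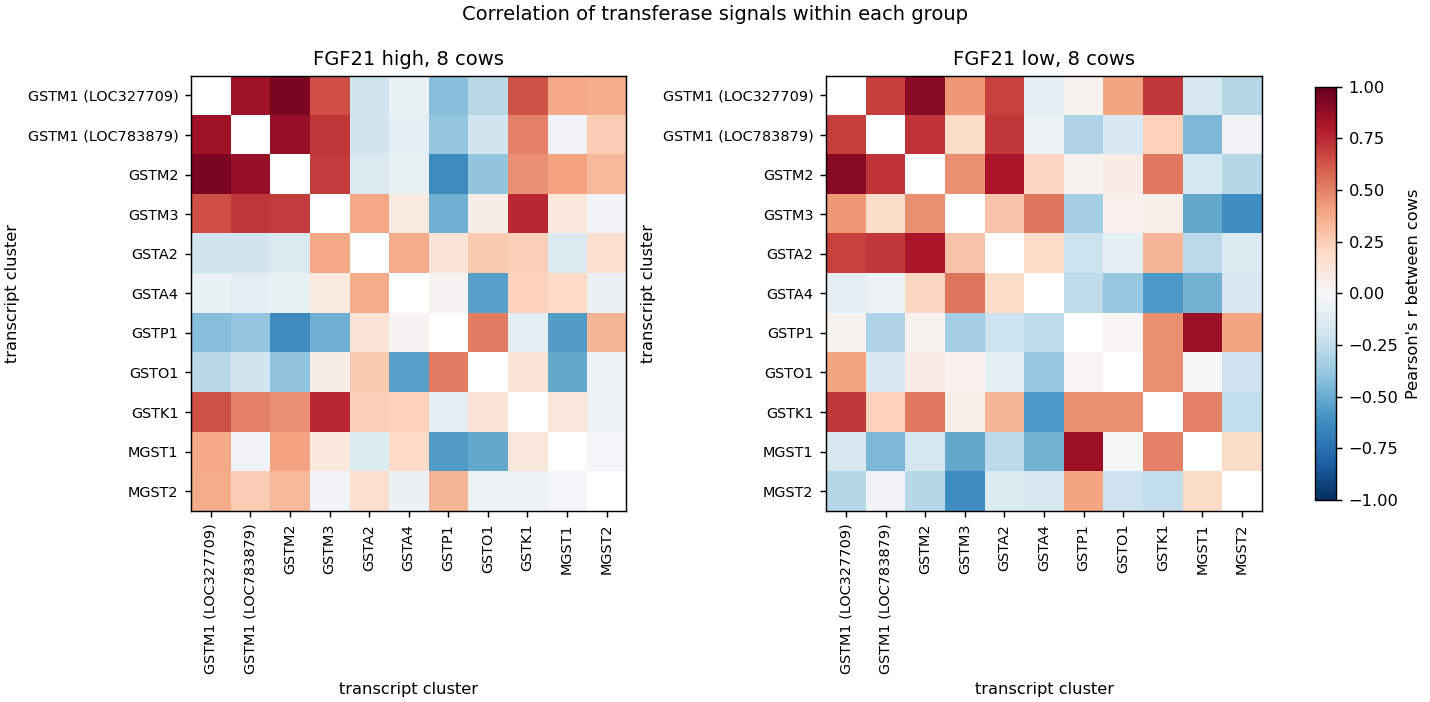
Pearson's r between every pair of the 11 transferase clusters over the 8 cows of the *FGF21* high group (left) and the 8 cows of the *FGF21* low group (right), with red for positive and blue for negative r. The block of *GSTM1* and *GSTM2* at the upper left is red in both groups, from 0.694 to 0.941, while most other pairs are pale or differ in sign.

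The cows were chosen by *FGF21*, whose signals were 6.16, 7.08 and 8.69 (lowest, median and highest) in *FGF21* high cows and 4.78, 5.38 and 5.51 in *FGF21* low cows. Within each group the transferases were set against *FGF21*, 22 relations in all, of which 0 passed the adjusted threshold by either coefficient and 3 had an unadjusted p under 0.05 by Pearson's r. *GSTM2* had the strongest relation, with r = -0.836 in *FGF21* high cows (p = 0.00985, exact permutation test, adjusted p = 0.217) and rho = -0.762 (p = 0.0368, exact, adjusted p = 0.731). It remained negative, at -0.693, without the 2 cows farthest from the median of *FGF21*. *GSTM1* (LOC327709) had an r of -0.711 in *FGF21* high cows (p = 0.0472, exact permutation test, adjusted p = 0.346), a rho of -0.690 (p = 0.0694, exact, adjusted p = 0.731) and an r of -0.663 without the 2 outermost cows. In *FGF21* low cows, whose *FGF21* signals spanned a narrow range, r was 0.007 for *GSTM2* and 0.298 for *GSTM1* (LOC327709).

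The third relation, *GSTP1* in *FGF21* high cows, was positive with r = 0.761 (p = 0.0233, exact permutation test, adjusted p = 0.256) and rho = 0.452 (p = 0.267, exact, adjusted p = 0.731). Its r turned negative, at -0.337, without the 2 outermost cows. Replicate 1 was the highest *FGF21* high cow for both *FGF21* and *GSTP1*, and without it alone r was 0.429.

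**Figure D5:**
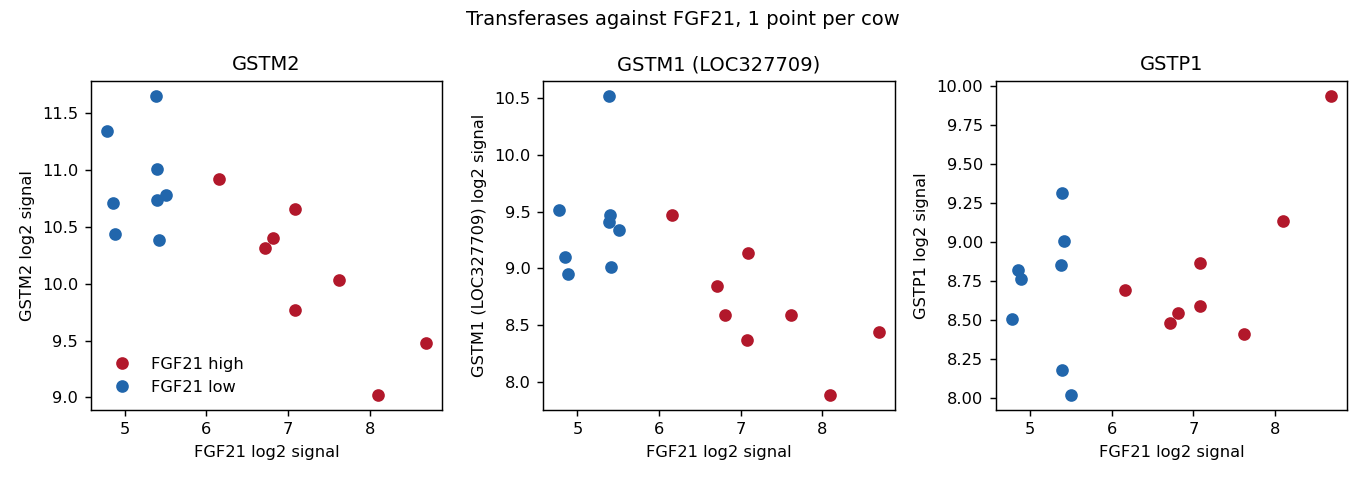
Log2 signals of *GSTM2*, *GSTM1* (LOC327709) and *GSTP1* on the vertical axes against the log2 signal of *FGF21* on the horizontal axis, 1 point per cow, with *FGF21* high cows in red and *FGF21* low cows in blue. Within *FGF21* high cows r was -0.836 for *GSTM2*, -0.711 for *GSTM1* (LOC327709) and 0.761 for *GSTP1*, where the cow at the upper right carries much of the relation.

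Signals of other cell types were read beside these results. Of 7 hepatocyte markers, 6 had a lower mean in *FGF21* high cows, 3 of them at an unadjusted p under 0.05 by limma and 0 at an adjusted p under 0.05. These were *APOA1* at -0.31 (SE 0.14), *CPS1* at -0.21 (SE 0.08) and *TAT* at -0.33 (SE 0.13), while *ALB* was at -0.02 (SE 0.05). The mean signal of the hepatocyte list was 12.05 to 12.25 in *FGF21* high cows (median 12.16) and 12.21 to 12.35 in *FGF21* low cows (median 12.28). All 6 endothelial markers and all 5 macrophage markers had a higher mean in *FGF21* high cows, with an unadjusted p under 0.05 for *LYVE1* at 0.38 (SE 0.13), *CLEC4G* at 0.23 (SE 0.09) and *CSF1R* at 0.24 (SE 0.11). The mean signal of the endothelial list was 8.24 to 8.57 in *FGF21* high cows and 8.06 to 8.45 in *FGF21* low cows, and that of the macrophage list 8.50 to 9.24 in *FGF21* high cows and 8.46 to 8.93 in *FGF21* low cows. The cholangiocyte list, of which 3 of 6 markers were higher in *FGF21* high cows, had a mean signal of 5.50 to 6.13 in *FGF21* high cows and 5.64 to 6.01 in *FGF21* low cows. The stellate and fibroblast list had 1 of 6 markers higher in *FGF21* high cows, *LRAT* at 0.28 (SE 0.10, unadjusted p under 0.05), with a mean signal of 6.83 to 7.35 in *FGF21* high cows and 6.75 to 7.32 in *FGF21* low cows. Of the lymphocyte list 3 of 5 markers were higher in *FGF21* high cows, with a mean signal of 5.89 to 6.32 in *FGF21* high cows and 5.98 to 6.24 in *FGF21* low cows. Of the red cell list 1 of 4 was higher, with 5.45 to 5.92 in *FGF21* high cows and 5.66 to 5.98 in *FGF21* low cows. Thus the ranges of the groups overlapped for each of the 7 lists, though only in part for the hepatocyte list. There the *FGF21* high median of 12.16 lay below the lowest *FGF21* low cow, at 12.21. Over all clusters, 4.52% were lower and 2.89% higher in *FGF21* high cows at an unadjusted p under 0.05 by limma.

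Within the groups, the marker means were also set against the transferases, and none of 154 relations passed the adjusted threshold. In *FGF21* high cows, the r of the hepatocyte mean was 0.896 with *GSTM1* (LOC783879) (p = 0.000372, exact permutation test, adjusted p = 0.0573 over the 154 relations between transferases and marker lists, which were chosen after the data were seen), with a rho of 0.881 (p = 0.00724, exact, adjusted p = 0.717) and an r of 0.869 without the 2 outermost cows. It was 0.890 with *GSTM1* (LOC327709) (adjusted p = 0.378, exact permutation test), 0.837 with *GSTM2* (adjusted p = 0.478, exact permutation test) and 0.623 with *GSTM3* (adjusted p = 0.764, exact permutation test). In *FGF21* low cows the same relations were 0.134, -0.079, 0.114 and -0.225, in that order of genes. The macrophage mean had negative values in *FGF21* high cows, with an r of -0.741 with *GSTM1* (LOC783879), -0.819 with *GSTM1* (LOC327709), -0.698 with *GSTM2*, -0.610 with *GSTM3* and -0.738 with *GSTK1* (rho between -0.786 and -0.476, adjusted p for r between 0.478 and 0.764, exact permutation test). Without the 2 outermost cows, the macrophage r values were -0.412, -0.666, -0.371, 0.182 and -0.385, in that order of genes. In *FGF21* low cows they were 0.167, 0.268, 0.221, -0.283 and 0.334, in the same order. The stellate and fibroblast mean had an r of -0.817 with *GSTM1* (LOC783879) in *FGF21* high cows (adjusted p = 0.622, exact permutation test). Its rho was -0.452, and r was -0.382 without the 2 outermost cows. The same relation had an r of -0.032 in *FGF21* low cows. Of the 154 relations, 11 had an unadjusted p under 0.05. The part of cell composition in the differences of the mu and alpha clusters was not tested.

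Around the transferases, the wider glutathione pathway was compared through 72 listed genes, of which 64 were matched to a cluster outside the 11. With limma, 0 of 64 passed the adjusted threshold, and 7 had an unadjusted p under 0.05, 5 higher and 2 lower in *FGF21* high cows, with a background of 7.42% of all clusters in either direction. The median difference over the 64 genes was -0.02, the same as over all clusters after rounding. *GSTA1*, *GSTM5*, *GSTT3*, *GSR*, *ACY3*, *NAT8* and *ABCC4* were not analysed here. *GSTM4* was not matched by symbol, but the reference gives it as a synonym of *GSTM1* (LOC783879), which is among the 11 transferase clusters.

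Of 11 other transferases, 7 had a negative difference and 4 a positive one, with a median of -0.12. Over all clusters, 56.6% had a negative difference and the median was -0.02. The theta class gene *GSTT4* had a positive difference of 0.56 (SE 0.24, limma adjusted p = 0.630). Its means were 7.09 ± 0.65 in *FGF21* high cows and 6.53 ± 0.45 in *FGF21* low cows. Of 14 genes for the synthesis and breakdown of glutathione, *CBS*, which starts the route from homocysteine to cysteine, differed by -0.22 (SE 0.08, limma adjusted p = 0.538), and all 8 *FGF21* high cows were below the *FGF21* low mean. *CHAC1*, which breaks glutathione down, differed by 0.30 (SE 0.11, limma adjusted p = 0.570), and all 8 *FGF21* high cows were above the *FGF21* low mean. Both subunits of the enzyme that sets the pace of glutathione synthesis showed small values, -0.07 (SE 0.15) for *GCLC* and -0.12 (SE 0.10) for *GCLM*.

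Of 12 genes of the mercapturate route and conjugate export, the exporter *ABCC1* differed by -0.20 (SE 0.09, limma adjusted p = 0.651). Of the 12 clusters listed as other glutathione-using enzymes, *FAHD1* differed by 0.25 (SE 0.07, limma adjusted p = 0.417). *FAHD1* is known as an acylpyruvate hydrolase and does not itself use glutathione. Of 15 regulators of transferase genes, *CEBPA*, a liver-enriched transcription factor, differed by 0.28 (SE 0.10, limma adjusted p = 0.538), and *BACH1*, a repressor at Nrf2 binding sites, by 0.22 (SE 0.09, limma adjusted p = 0.580). *NFE2L2*, which codes for Nrf2, differed by 0.05 (SE 0.07), and *KEAP1*, which codes for its inhibitor, by -0.02 (SE 0.08).

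Finally, clusters whose signals followed a transferase from cow to cow were sought by Pearson's r over all 16 cows after each group was centred on its mean. The search covered 17292 named clusters and left out the 11 transferase clusters themselves. On this measure *GSTM1* (LOC327709) and *GSTM1* (LOC783879) had an r with *GSTM2* of 0.913 and 0.813. The values given next are the highest of many outside these 11 clusters and carry no test. For *GSTM2* they were *CYP1A1*, a cytochrome P450 induced by aromatic compounds, with r = 0.822, *HSD11B1*, which regenerates cortisol from cortisone, with r = 0.810, and *CA8*, of the carbonic anhydrase family, with r = 0.798. Within groups, *CYP1A1* had an r with *GSTM2* of 0.839 in *FGF21* high cows and 0.789 in *FGF21* low cows. The differences of these genes were -0.25 (SE 0.13) for *CYP1A1*, -0.33 (SE 0.09) for *HSD11B1* and -0.17 (SE 0.13) for *CA8*.

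*GSTM1* (LOC783879) was followed most closely, outside the 11 clusters, by *DCDC1* with r = 0.795, the mitochondrial import component *TIMM44* with 0.773 and *HPD*, a dioxygenase of tyrosine breakdown, with 0.770. For *GSTA2* the closest were the calcium-binding *CALB1* with r = 0.801, the palmitoyltransferase *ZDHHC8* with 0.781 and the apoptosis repressor *NOL3* with 0.777. *CALB1* followed *GSTA2* with an r of 0.921 in *FGF21* high cows and 0.396 in *FGF21* low cows. *GSTP1* was followed by *MAPRE3*, which binds microtubule ends, with r = 0.819, the collagen cross-linking enzyme *LOXL2* with 0.815 and the ferric reductase *CYBRD1* with 0.812. No cluster appeared in more than 1 of these lists.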

How the data were processed

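Liver RNA of 16 cows was measured on 1 Affymetrix whole-transcript array per cow. The values are log2 signals as deposited by the authors, whose service provider corrected background, normalized between arrays and summarized probes per transcript cluster by RMA with a signal space transformation in Affymetrix Expression Console 1.4, per the submitters' processing notes. Columns of the authors' own comparison (a mean per group, fold change and p-value) stand beside them and were not used. A rounded table of the same log2 signals differed from the sheet by at most 0.005. The genome build of the cluster positions was not given in those sources. No sequences are printed, as none were used here. The accessions of 8 of 11 transferase clusters and of 14673 of all clusters were found in the reference annotation, ARS-UCD2.0, which was used for names and gene order only.

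Groups were compared over all 20421 clusters, without a filter, with lmFit and eBayes of limma 3.58.1 under R 4.3.3, with group as the only term, and Benjamini-Hochberg adjustment at 0.05. The fits were tested on simulated data first. A fold change is the log2 difference turned back to the linear scale. Each cow is a separate animal. Correlations within a group were tested by two-sided exact permutation in Python 3.11.15, using scipy 1.17.1, pandas 2.3.3 and numpy 2.4.6, and matplotlib 3.10.9 drew the figures. The members and lists were chosen with earlier results of these data known. Named were every transferase cluster, *FGF21*, per pathway list up to 4 genes with the smallest unadjusted p under 0.05, and the 3 clusters most like *GSTM2*, the brighter *GSTM1* cluster, *GSTA2* and *GSTP1*. *GCLC*, *GCLM*, *NFE2L2*, *KEAP1* and the cell type markers were added outside this rule, with their values already seen. Alternatives were the methods' t-test, array weights, a trended robust eBayes, the rounded table, renormalization by quantiles or medians, a filter on dim clusters, leaving out each cow, a block for the replicate number, a covariate for the labels' running number, Spearman's rho and, added after the data were seen, leaving out the array in each group least like the median array and the pooled SD without each cow.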

Additional observations from a re-analysis of the deposited data

Results flagged for a closer look

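In 4 of 22 groups of 8 cows, the lowest or highest cow lay far from the others by Dixon's ratio, where chance gives about 1 in 20. *GSTM1* (LOC783879) was 10.33 in *FGF21* high replicate 5, while the other *FGF21* high cows had 11.27 to 12.11. *GSTA4* was 8.58 in *FGF21* high replicate 3, with 9.54 to 10.03 in the other *FGF21* high cows. *GSTM1* (LOC327709) was 10.52 in *FGF21* low replicate 4, against 8.95 to 9.52 in the rest of its group, and *GSTK1* was 9.91 in the same cow, against 9.49 to 9.65.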

How the results depend on the processing

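Over 26 alternatives, the differences of the 4 mu clusters, both alpha clusters, *GSTO1* and *MGST1* kept their sign, while those of *GSTP1*, *GSTK1* and *MGST2* changed sign in 1, 4 and 10 of them. No transferase cluster passed the adjusted threshold under any alternative. By the methods' t-test, 3 rather than 5 clusters met an unadjusted p under 0.05 with a fold change above 1.2, without *GSTM1* (LOC783879) and *GSTA4*, and 0 after Benjamini-Hochberg. With the running number as a covariate, which is unbalanced between the groups, 4 met both, with *GSTO1* gained and the same clusters lost. Leaving out 1 cow gave 4 to 5, as *GSTM1* (LOC783879) was lost without *FGF21* high replicate 5 and *GSTA4* without *FGF21* low replicate 6. The median difference then ranged from -0.35 without *FGF21* high replicate 1 to -0.10 without *FGF21* high replicate 6. By Spearman's rho, 4 rather than 2 pairs passed. Other pathway genes at an unadjusted p under 0.05 numbered 5 to 8. Same-numbered cows correlated at -0.205 to 0.134 in their deviations, with 1 of 8 pairs over 0.1. These values show no sign of pairing by number, but correlations over whole arrays cannot exclude it. With the replicate number as a block, 5 clusters met both criteria and the median was -0.22. Of all 20421 clusters, 315 were lower and 264 higher by both criteria in the main fit. These counts were 241 and 203 by the t-test, 360 and 275 with the running number, and 333 and 283 with the block. Without 1 cow, 304 to 428 were lower and 221 to 351 higher. Without the 2 arrays least like the median array, the *GSTM2* difference was -0.79. With 8 cows per group and spreads of this size, small differences could not be resolved.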
